A study of Homo sapiens with 6 samples.

Results

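The nuclear genes for subunits of the 5 respiratory chain complexes were followed in 3PPE cells (endoderm of the third pharyngeal pouch) derived from the human embryonic stem cell line H9. Members were taken by name from the protein-coding rows of the count table. These were the NDUF genes of complex I, the SDH genes of complex II, the UQCR genes and CYC1 of complex III, the COX4 to COX8 genes of complex IV and the ATP5F1, ATP5M and ATP5P genes of complex V. The rule found 87 members among 58735 genes, of which 38 belonged to complex I, 4 to complex II, 10 to complex III, 17 to complex IV and 18 to complex V. It left out 95 pseudogenes and 1 readthrough gene, ATP5MF-PTCD1.

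RNA-seq libraries were made at day 9 of differentiation from cells that had received siRNA at day 7. The NC group (3 libraries) received a negative control siRNA and the Si-HOXA3 group (3 libraries) an siRNA against HOXA3, a homeobox transcription factor of the pharyngeal pouches. Both groups came from wild-type H9 cells that were started on mouse embryonic fibroblast feeders, exposed to activin A and WNT3A, and re-seeded on Matrigel at day 4 in medium with retinoic acid, SB431542, BMP4 and IWP2. Both went through the same lipofection step, and the labels differ between groups only in the siRNA. All cells came from 1 line. The study describes its siRNA experiments as independent biological repeats, but the labels do not say so of each library, and where libraries shared a culture the p-values measure only the spread between them.

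The respiratory chain sits in the inner mitochondrial membrane. Complexes I and II pass electrons from NADH and succinate to ubiquinone, complex III passes them on to cytochrome c, and complex IV reduces oxygen. Complexes I, III and IV pump protons, and complex V, the ATP synthase, uses the resulting gradient to make ATP. Most subunits are encoded in the nucleus and assembled with a small number encoded by mitochondrial DNA, whereas complex II is wholly nuclear.

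Library totals ran from 14117150 to 15282307 counts. HOXA3 itself was measured at 16.6, 15.9 and 15.5 CPM (counts scaled to the size of the library) in NC replicates 1 to 3 and at 10.9, 13.2 and 15.5 CPM in Si-HOXA3 replicates 1 to 3. The lowest NC library and Si-HOXA3 replicate 3 were at the same level, so the groups touched. The log2 fold change was -0.27 ± 0.16 (SE), which did not pass the test (edgeR quasi-likelihood, Benjamini-Hochberg adjusted p = 0.828), and groups are therefore named by their labels throughout. Si-HOXA3 replicate 2 stood apart. Its counts differed from those of the other libraries by a chi-square of 28.7 to 34.7 per degree of freedom. Among the remaining 5 the values were 4.85 to 11.9. Most comparisons of the groups are therefore given with and without Si-HOXA3 replicate 2. Of 10 foregut and pouch endoderm markers, 4 were under 1 CPM on average, namely FOXA1, FOXA2, SOX17 and TBX1, so that these defining transcription factors of the labelled tissue were at or near 0. The epithelial genes KRT8, KRT18, CDH1 and EPCAM were abundant, as were GATA3, TFAP2A and KRT7 of the amnion or trophoblast list.

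Promoter windows of 300 bases (250 before and 50 after the gene start) were matched in RefSeq (GRCh38.p14) for 69 of the 87 members. They were searched on both strands for 3 letter strings bound by factors known to act on respiratory genes: GCGCANGCG for NRF1, CCGGAAG for ETS factors such as GABPA, and AAGATGGCG for YY1. The NRF1 string stood in 23 member windows (33.3%), against 8.05% of 27305 windows of all genes and 11.0% of those of protein-coding genes. The ETS string stood in 20 member windows, against 10.7% of all windows and 14.2% of protein-coding ones, and the YY1 string in 8 (11.6%, against 1.85% and 2.74%). At least 1 of the strings was found in 41 members (59.4%), against 18.3% of all windows and 24.7% of protein-coding ones, and 8 members held 2 of them. ATP5PF held all 3. A match is only a description of these letters. Of the 38 NRF1 matches, 37 began before the gene start, whereas 7 of the 8 YY1 matches began after it.

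Stretches ahead of the outermost annotated start are shown for the member with the smallest p of all (NDUFB10). Those with the smallest p whose stretch held an NRF1 string (ATP5ME) or an ETS string (NDUFB7) are also shown. Members without a matched window or with only a short stretch were passed over. The full windows of ATP5ME, NDUFA1 and COX6B1, which had a smaller p than NDUFB7, also held an ETS string. The stretches shown lie on GRCh38.p14, at chr16:1959288-1959507 on the plus strand for NDUFB10, at chr4:674339-674526 on the minus strand for ATP5ME, and at chr19:14572067-14572316 on the minus strand for NDUFB7. They are written 5′ to 3′, with matches in capitals. ATP5ME held 3 NRF1 matches, NDUFB7 held 1 ETS match, and NDUFB10 held none.
NDUFB10: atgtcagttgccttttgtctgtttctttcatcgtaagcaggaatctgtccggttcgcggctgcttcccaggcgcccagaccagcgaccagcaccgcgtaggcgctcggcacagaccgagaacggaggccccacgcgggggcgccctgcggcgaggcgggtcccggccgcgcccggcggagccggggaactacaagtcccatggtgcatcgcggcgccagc
ATP5ME: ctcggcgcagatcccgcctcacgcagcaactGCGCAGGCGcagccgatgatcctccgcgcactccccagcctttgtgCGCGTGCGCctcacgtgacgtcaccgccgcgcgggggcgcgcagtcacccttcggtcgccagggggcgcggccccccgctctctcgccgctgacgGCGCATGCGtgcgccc
NDUFB7: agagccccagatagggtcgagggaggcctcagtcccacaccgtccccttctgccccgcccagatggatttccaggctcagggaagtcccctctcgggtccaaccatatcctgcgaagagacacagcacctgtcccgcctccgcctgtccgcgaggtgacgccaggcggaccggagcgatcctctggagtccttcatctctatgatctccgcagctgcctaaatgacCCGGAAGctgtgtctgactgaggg

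Levels were compared between genes as TPM (counts scaled to transcript length and library size), using the longest annotated transcript of each gene. Of the 87 members, 81 passed the filter on low counts, and their mean TPM ran from 3.70 (NDUFA7) to 823 (ATP5F1B) with a median of 65.2. ATP5F1B, the catalytic beta subunit of the ATP synthase, led at 823 ± 56.8 TPM (SD, n = 6). NDUFS5, an accessory subunit of complex I, followed at 378 ± 74.8 TPM. The gamma and alpha subunits of the ATP synthase came next, with ATP5F1C at 331 ± 40.1 and ATP5F1A at 282 ± 24.8 TPM. The order below ATP5F1B was less firm, since the means of NDUFS5 and ATP5F1C lay within 1 SD of NDUFS5 of each other. It also moved with the length used. With the median length of the basic protein-coding transcripts, ATP5F1B was at 573 and ATP5F1A at 544 TPM, and SDHC, whose longest annotated transcript has 13566 bases, was at 467 instead of 22.7 TPM.

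**Figure D1:**
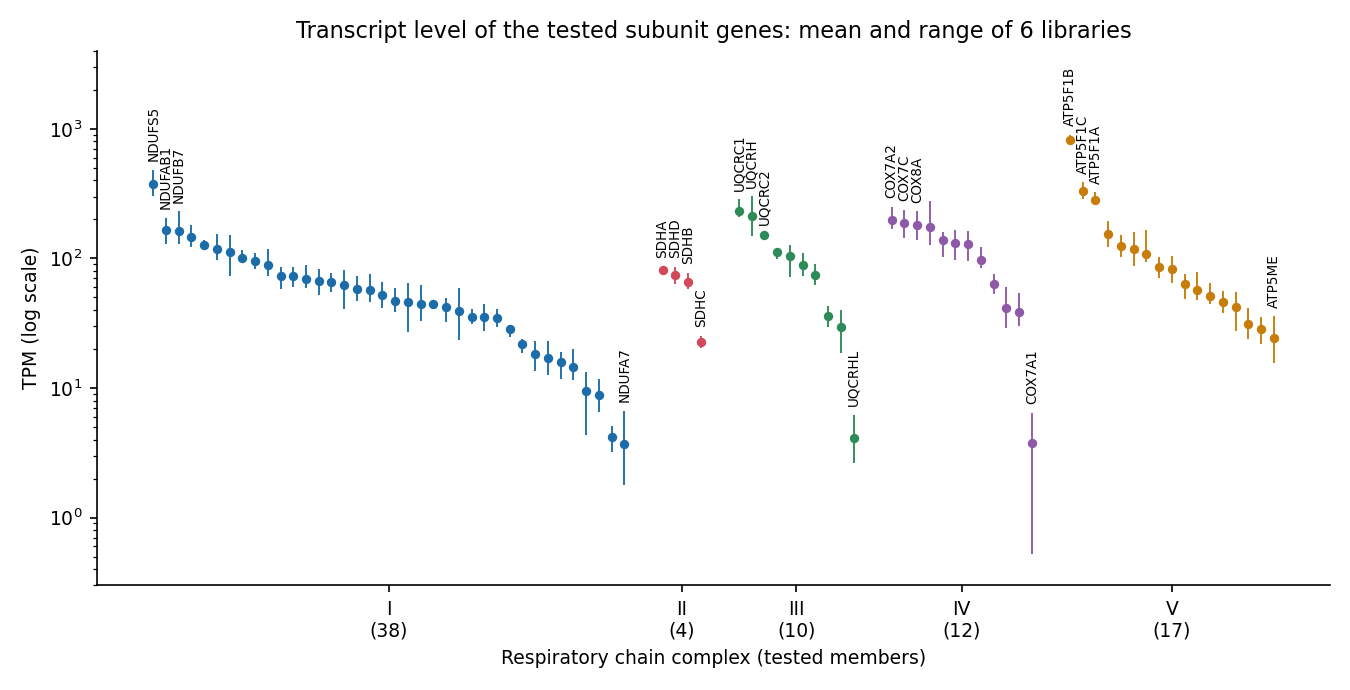
Mean TPM (log scale) of each of the 81 tested members over 6 libraries, ordered within complexes I to V, with bars from the lowest to the highest library. The 3 highest and the lowest member of each complex are named. ATP5F1B stands highest at 823 TPM, and NDUFA7 (3.70), COX7A1 (3.78) and UQCRHL (4.11) lie at the foot of complexes I, IV and III.

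Within complex I, NDUFS5, NDUFAB1 (the mitochondrial acyl carrier protein, 165 TPM) and NDUFB7 (163 TPM) were highest and NDUFA7 lowest. In complex II the flavoprotein SDHA was at 82.0, the membrane anchor SDHD at 73.9 and the iron-sulfur subunit SDHB at 65.2 TPM. Complex III was led by the core protein UQCRC1 at 231, the hinge protein UQCRH at 214 and the core protein UQCRC2 at 150 TPM. COX7A2 (198), COX7C (189) and COX8A (179 TPM) led complex IV. These orders, too, moved with the median length of the basic protein-coding transcripts. In complex IV, COX4I1 was then highest at 337 TPM, with COX7C at 313, COX7A2 at 263 and COX8A at 125. In complex I, NDUFS8 went from 56.9 to 213 TPM, above NDUFAB1 (127) and NDUFB7 (114). In complex III, UQCRC2 was highest at 194 TPM.

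Paralog choice was one-sided in most sets. COX4I1 held 99.9% ± 0.16 (SD, n = 6) of the summed TPM of COX4I1 and COX4I2, and COX6B1 held 99.5% ± 0.31 of its set. UQCRH held 98.1% ± 0.41 beside its copy UQCRHL, and ATP5MG held 98.7% ± 1.81 beside ATP5MGL. The 3 genes for the same mature c subunit of the ATP synthase were shared more evenly, with ATP5MC2 at 61.0% ± 4.11, ATP5MC3 at 20.6% ± 1.90 and ATP5MC1 at 18.4% ± 2.88. These shares rest on the longest transcripts, and the SD does not cover that choice. With the median length of the basic protein-coding transcripts, ATP5MC2 was at 260, ATP5MC3 at 234 and ATP5MC1 at 131 TPM. COX7A2 held 74.5% ± 2.49 of its set, COX7A2L held most of the rest, and the muscle isoform COX7A1 held 1.47% ± 0.92. NDUFA4 is grouped with complex I by its name although the protein is a subunit of complex IV. It held 97.7% ± 0.61 beside NDUFA4L2, which the naming rule did not include.

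The 6 members that did not pass the filter were isoforms or copies. COX6A2 and COX7B2 had 0 counts in every library, which allows up to 3 counts, or 0.197 to 0.211 CPM. COX4I2 had 1 count in NC replicate 2 and 1 in Si-HOXA3 replicate 1. COX8C had 6, 3 and 0 counts in the NC libraries and 0, 1 and 0 in the Si-HOXA3 libraries. ATP5MGL had 4, 0 and 3 counts against 0, 0 and 1. COX6B2 had 12, 13 and 5 counts against 8, 4 and 4. These limits cover counting error only.

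Comparison of Si-HOXA3 with NC asked whether the siRNA changed the subunit genes. Most members were higher in the Si-HOXA3 group, 70 of the 81 tested, and the median log2 fold change was 0.17, against 0.00 over all 16561 genes tested. None passed at an adjusted p of 0.05 (edgeR), where 0.00604% of all genes did (1 gene, BOLA2B). At an unadjusted p under 0.05, 16 members were higher (19.8% of 81, against 3.79% of all genes) and 1 was lower (1.23%, against 2.57%). DESeq2 also called 0 members at an adjusted p of 0.05, where 35 of all genes passed. At an unadjusted p under 0.05 it had 18 higher and 1 lower, where 936 of 16561 genes were called in either direction. By the order of the libraries alone, 8 members had all Si-HOXA3 libraries above all NC libraries (9.88%, against 6.41% of all genes) and 1 had them all below (1.23%, against 6.88%). Without Si-HOXA3 replicate 2, 9 of 82 were all above (11.0%, against 13.8% of all genes) and 8 all below (9.76%, against 13.8%).

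Without a filter on low counts, 7 of 85 members passed at an adjusted p of 0.05, against 100 of 34513 genes. They were NDUFA1, NDUFB7, NDUFB10, UQCRB, UQCRH, COX5A and COX6B1, with COX6B1 lowest at an edgeR adjusted p of 0.000303. The groups of COX6B1 overlapped, with Si-HOXA3 replicate 3 at 33.8 CPM and NC replicate 1 at 35.7 CPM. Leaving out NC replicate 2 brought the members at an unadjusted p under 0.05 to 11 of 81, against 643 of 17153 genes. Leaving out Si-HOXA3 replicate 2 brought them to 11 of 82, against 1828 of 17144 genes. Without Si-HOXA3 replicate 3 they were 29 of 82, against 1362 of 17087 genes.

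The higher medians came mostly from 1 library. Of the 81 tested members, 69 were highest in Si-HOXA3 replicate 2 among the 6 libraries. Relative to the NC mean on the log2(CPM + 0.5) scale, the median member stood at -0.04, -0.05 and 0.10 in NC replicates 1 to 3, and at 0.13, 0.50 and -0.07 in Si-HOXA3 replicates 1 to 3. Si-HOXA3 replicates 1 and 3 thus lay on either side of the NC mean, and Si-HOXA3 replicate 3 was below all NC libraries. Members took 0.434%, 0.437% and 0.483% of the counts of the NC libraries and 0.471%, 0.601% and 0.427% of those of the Si-HOXA3 libraries. Without Si-HOXA3 replicate 2, 42 of 82 tested members were higher and the median log2 fold change was 0.00.

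**Figure D2:**
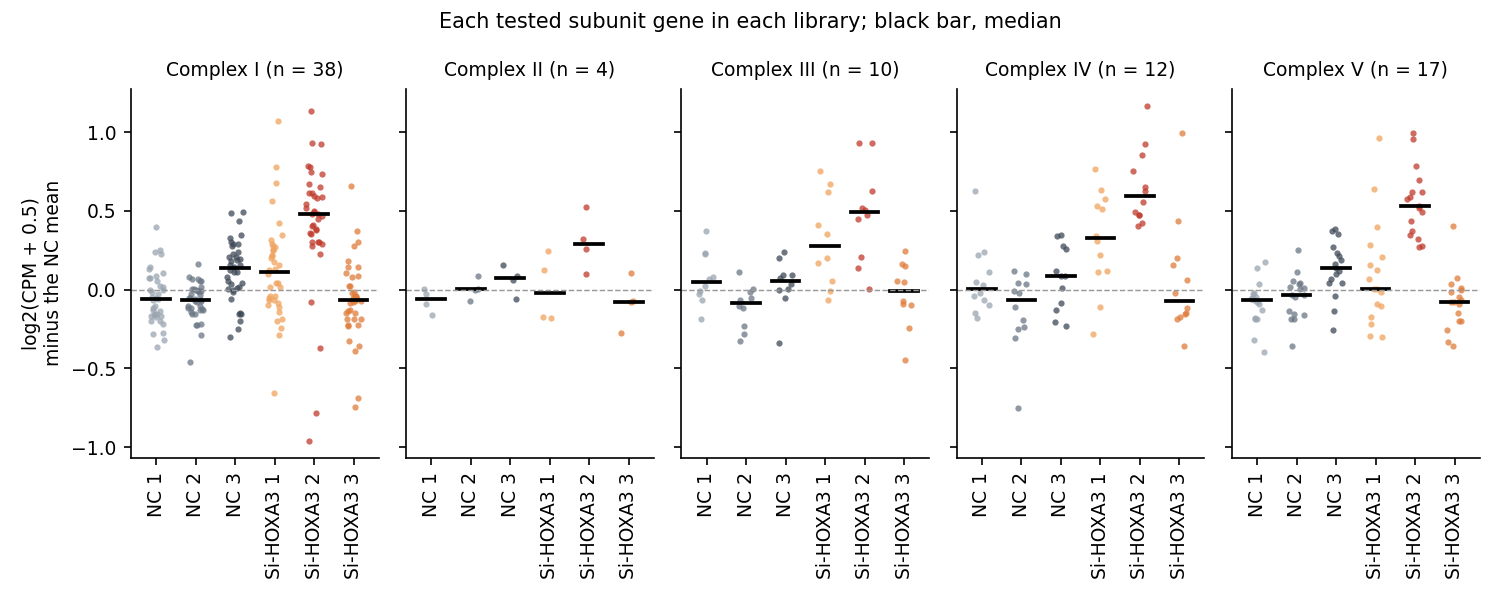
Deviation of each tested member from the mean of the 3 NC libraries, on the log2(CPM + 0.5) scale, by library and complex (points, genes; black bars, medians). In every complex the median of Si-HOXA3 replicate 2 is the highest of the 6 libraries, from 0.29 in complex II to 0.59 in complex IV, whereas Si-HOXA3 replicate 3 has medians from -0.08 to -0.01.

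Without that library the fit tested 17144 genes, of which 0.14% passed at an adjusted p of 0.05, again with no member among them. At an unadjusted p under 0.05, 9 of 82 members were higher (11.0%, against 5.21% of all genes) and 2 were lower (2.44%, against 5.45%). All 9 that were higher had also been higher at that threshold with 6 libraries: NDUFB10, NDUFA1, NDUFA11, NDUFB7, NDUFA3, UQCRB, COX5A, COX6B1 and ATP5ME. The fits share 5 libraries, so this overlap is no independent evidence. ATP5PD and ATP5MC1, both of complex V, were the 2 lower members.

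Complex IV had the highest median of the complexes. All 12 of its tested members were above 0 with 6 libraries, with a median log2 fold change of 0.36. At an unadjusted p under 0.05, 5 were higher (41.7% of 12, against 3.79% of all genes). In 0 of the 12 were all Si-HOXA3 libraries above all NC libraries, against 6.41% of all genes. Without Si-HOXA3 replicate 2 the median was 0.17, with 8 of 13 members above 0. COX5A, a nuclear subunit at the matrix side of the enzyme, was at 54.0, 46.0 and 40.2 CPM in the NC libraries and at 69.3, 78.3 and 53.3 CPM in the Si-HOXA3 libraries. Si-HOXA3 replicate 3 lay just under NC replicate 1, so the groups overlapped. Its log2 fold change was 0.52 ± 0.16 (SE; edgeR adjusted p = 0.590), and 0.39 ± 0.13 without Si-HOXA3 replicate 2 (adjusted p = 0.319).

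COX6B1, on the intermembrane side, was at 35.7, 28.0 and 27.6 CPM in NC and at 47.2, 68.5 and 33.8 CPM in Si-HOXA3. Here, too, Si-HOXA3 replicate 3 fell within the NC range. The log2 fold change of 0.71 ± 0.22 went to 0.41 ± 0.15 without replicate 2. COX6A1, COX7B and COX4I1 had log2 fold changes of 0.55, 0.47 and 0.34, which went to 0.29, 0.22 and 0.17. COX7A1 had the largest value of any member with 6 libraries, 1.02 ± 0.57, but at 1.14, 0.13 and 0.66 CPM in NC against 1.31, 1.00 and 1.62 CPM in Si-HOXA3 its libraries overlapped. Single libraries moved it, to 1.71 without NC replicate 1 and to 0.54 without NC replicate 2, where ATP5ME (0.88) and NDUFA1 (0.81) were above it, and with quality weights in voom it was 1.94.

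For complex III the median member stood at 0.20 on the log2 scale over 6 libraries and at 0.10 without Si-HOXA3 replicate 2. UQCRB, which contacts the ubiquinone site, was at 50.8, 46.8 and 34.2 CPM in NC and at 69.4, 83.0 and 51.4 CPM in Si-HOXA3, and its groups did not overlap. The log2 fold change was 0.63 ± 0.18 (adjusted p = 0.586), and 0.46 ± 0.18 without replicate 2 (edgeR adjusted p = 0.435). UQCRH was at 47.1, 34.1 and 40.0 CPM against 61.9, 76.8 and 41.6 CPM, with Si-HOXA3 replicate 3 among the NC values. Its log2 fold change of 0.57 went to 0.36. UQCR10, a small accessory subunit, had 0.37 and 0.21. The redox subunits CYC1 (cytochrome c1) and UQCRFS1 (the Rieske protein) had 0.16 and 0.08 with 6 libraries, and 0.17 and -0.16 without that one. UQCRC2 differed little between groups, at -0.00 ± 0.09, and at -0.01 ± 0.07 without Si-HOXA3 replicate 2.

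Complex I had a median of 0.15 with 6 libraries and -0.02 without Si-HOXA3 replicate 2. NDUFB10, an accessory subunit of the membrane arm, was at 33.5, 29.4 and 22.9 CPM in NC and at 41.9, 54.1 and 36.7 CPM in Si-HOXA3, with no overlap. Its log2 fold change was 0.63 ± 0.17, the smallest p of any member (edgeR adjusted p = 0.549), and 0.46 ± 0.14 without replicate 2. NDUFA1 was at 9.53, 6.34 and 5.90 CPM against 15.5, 16.2 and 8.87 CPM, so Si-HOXA3 replicate 3 lay within the NC range. Its log2 fold change was 0.90 ± 0.26, and 0.74 ± 0.25 without replicate 2. NDUFB7 was at 22.8, 24.9 and 23.5 CPM against 38.2, 45.6 and 23.4 CPM, and only Si-HOXA3 replicates 1 and 2 were above NC. Its log2 fold change of 0.59 ± 0.20 went to 0.37 ± 0.17 without replicate 2.

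NDUFA11 and NDUFA3 had log2 fold changes of 0.63 and 0.59 with 6 libraries, and 0.51 and 0.48 without Si-HOXA3 replicate 2. NDUFV3, an accessory subunit of the NADH-binding module, had 0.28 and 0.21. NDUFA7 was the 1 lower member, at 1.34, 0.99 and 0.85 CPM against 0.48, 0.40 and 0.42 CPM, with no overlap. Its log2 fold change was -1.27 ± 0.45, and -1.22 ± 0.60 without Si-HOXA3 replicate 2. This rests on low counts. NDUFA13 and NDUFV2, the next lowest of complex I, had -0.35 ± 0.32 and -0.19 ± 0.21, within the spread between libraries. Without Si-HOXA3 replicate 2 they had -0.07 and -0.09.

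Core subunits of complex I lie partly in its matrix arm, which holds the flavin and the iron-sulfur clusters. NDUFS1, NDUFS3, NDUFV1 and NDUFV2 had log2 fold changes of -0.04, 0.08, 0.10 and -0.19 with 6 libraries. Without Si-HOXA3 replicate 2 they had -0.02, -0.12, -0.06 and -0.09. NDUFS7 and NDUFS8 had larger values, 0.35 and 0.36, which went to 0.08 and 0.13 without Si-HOXA3 replicate 2. None of these 6 was at an unadjusted p under 0.05 in either fit.

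Complex II had the lowest median of the complexes with 6 libraries, 0.04, and a median of -0.05 without Si-HOXA3 replicate 2. SDHB was at 22.4, 24.3 and 21.9 CPM in NC and at 27.2, 33.1 and 24.6 CPM in Si-HOXA3, without overlap, and had a log2 fold change of 0.31 ± 0.14 (adjusted p = 0.773). It was 0.17 ± 0.12 without replicate 2. SDHA, SDHC and SDHD had 0.11, -0.05 and -0.03, and 0.03, -0.13 and -0.24.

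Complex V had a median of 0.20 with 6 libraries and -0.05 without Si-HOXA3 replicate 2. ATP5ME, a small subunit of the membrane part, was at 3.29, 2.78 and 2.55 CPM in NC and at 6.05, 6.18 and 3.94 CPM in Si-HOXA3, with no overlap. Its log2 fold change was 0.91 ± 0.25 (adjusted p = 0.549), and 0.79 ± 0.27 without replicate 2 (edgeR adjusted p = 0.311). ATP5F1B was at 480, 520 and 523 CPM against 472, 613 and 475 CPM, so that Si-HOXA3 replicates 1 and 3 were below all NC libraries and replicate 2 above. ATP5F1A, ATP5F1B and ATP5F1C had log2 fold changes of 0.05, 0.03 and 0.06, and -0.12, -0.10 and -0.13 without that library. The delta and epsilon subunits of the central stalk had larger values. ATP5F1D was at 51.4, 50.4 and 48.9 CPM against 52.6, 97.7 and 52.7 CPM, without overlap, and its log2 fold change of 0.43 ± 0.21 went to 0.07 ± 0.09. ATP5F1E had 0.48 ± 0.22, and 0.31 ± 0.34 without replicate 2. ATP5PD (stalk) and ATP5MC1 had 0.11 and -0.06, and -0.25 ± 0.10 and -0.26 ± 0.12. ATP5PO had -0.07, and -0.29 ± 0.18.

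**Figure D3:**
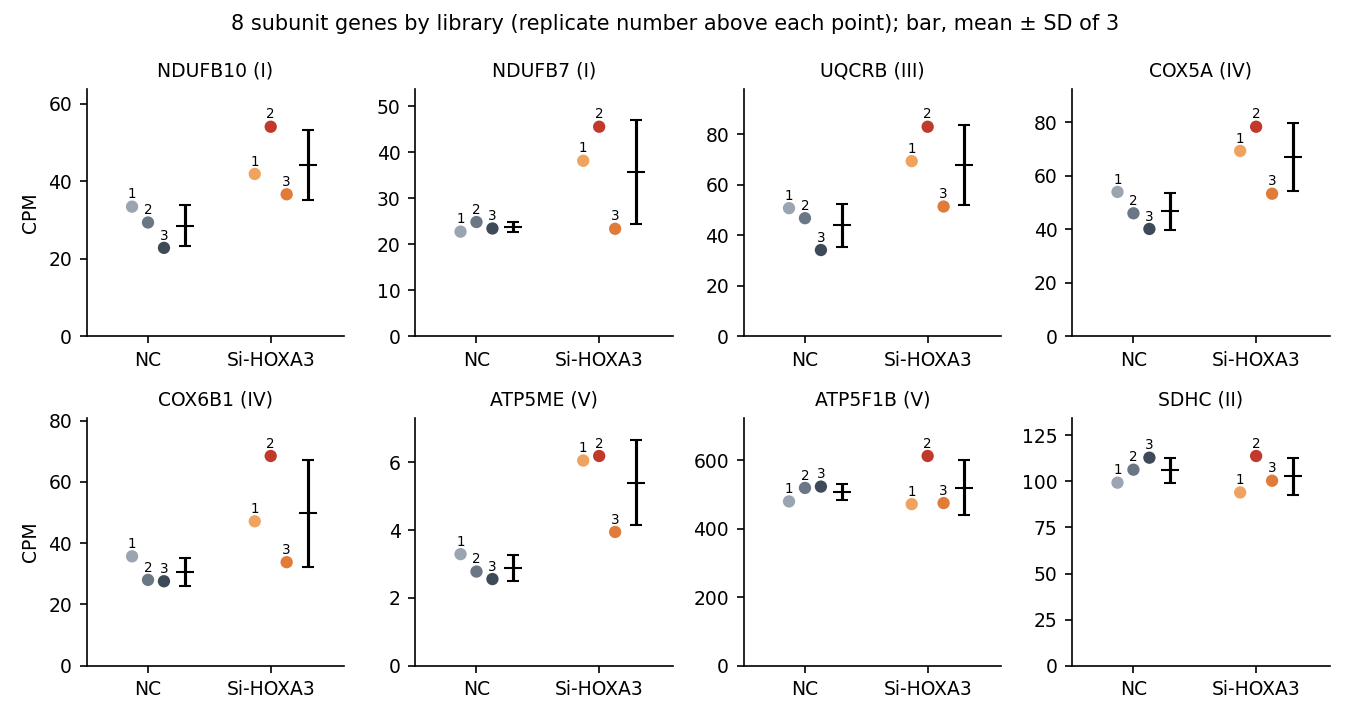
CPM by library for 8 members, chosen after their values were seen, with the replicate number above each point and the mean ± SD of 3 libraries beside it. Si-HOXA3 replicate 2 is the highest point in each panel. Replicate 1 lies beside it for NDUFB7 and ATP5ME (38.2 and 6.05 CPM), whereas for ATP5F1B replicates 1 and 3 lie below NC.

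**Figure D4:**
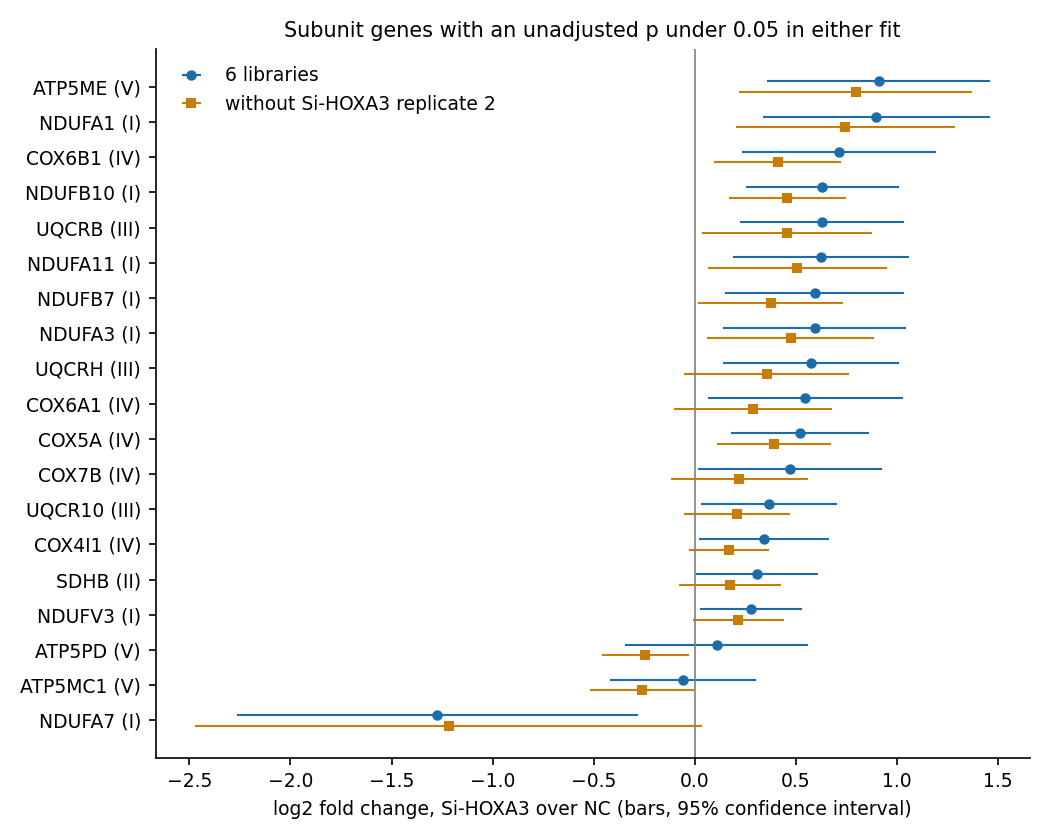
Log2 fold change of Si-HOXA3 over NC with its 95% confidence interval for the 19 members at an unadjusted p under 0.05 with 6 libraries (circles) or without Si-HOXA3 replicate 2 (squares). All 16 higher members lie nearer 0 without that library, and ATP5PD changes sign, from 0.11 to -0.25.

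Several of the members with the largest values share sequence or position with other genes. ATP5ME shares 45.5%, NDUFA1 40.7% and NDUFA7 32.5% of their 50-base transcript stretches with other annotated genes, and 12 of the 81 tested members share at least 20%. ATP5ME overlaps MYL5, NDUFA1 overlaps RNF113A, and NDUFA7 overlaps RPS28, each on the opposite strand. The strand setting of the counting is not given in the sources used here, so reads of these partners cannot be told apart from those of the member. By GENCODE 29 (GRCh38), ATP5ME lies at chr4:672436-674338, NDUFA1 at chrX:119871487-119876662, NDUFA7 at chr19:8308768-8321396, NDUFB10 at chr16:1959508-1961975 and COX5A at chr15:74919791-74938168. NDUFB10, NDUFB7, COX6B1 and SDHB share none, and COX5A shares 0.73%.

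Transcript length moved with the outlying library. Over all genes tested in Si-HOXA3 replicate 2, the sixth with the shortest transcripts (up to 1583 bases) had a median deviation from the NC mean of 0.24, and the longest sixth (6077 bases or more) -0.27. In the other 5 libraries every sixth lay between -0.03 and 0.08. The tested members had a median transcript of 1439 bases, against 3324 over all genes, and 42 of the 81 were in the shortest sixth. Within that sixth, members in Si-HOXA3 replicate 2 stood at 0.52 while all its genes stood at 0.24, and in the next sixth at 0.41 against 0.20. The part of length in the members' values was not tested beyond these values and the correction that follows. In the fit with a correction for length and GC content, the median log2 fold change of the members was 0.11. At an unadjusted p under 0.05, 15 were higher (18.5%, against 3.92% of all genes) and 1 was lower (1.23%, against 3.68%). With that correction and without replicate 2, a setting added after the data were seen, the members' median was -0.04. Of 82 members, 6 were higher and 8 lower at that threshold, where 1952 of 17144 genes were called in either direction.

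**Figure D5:**
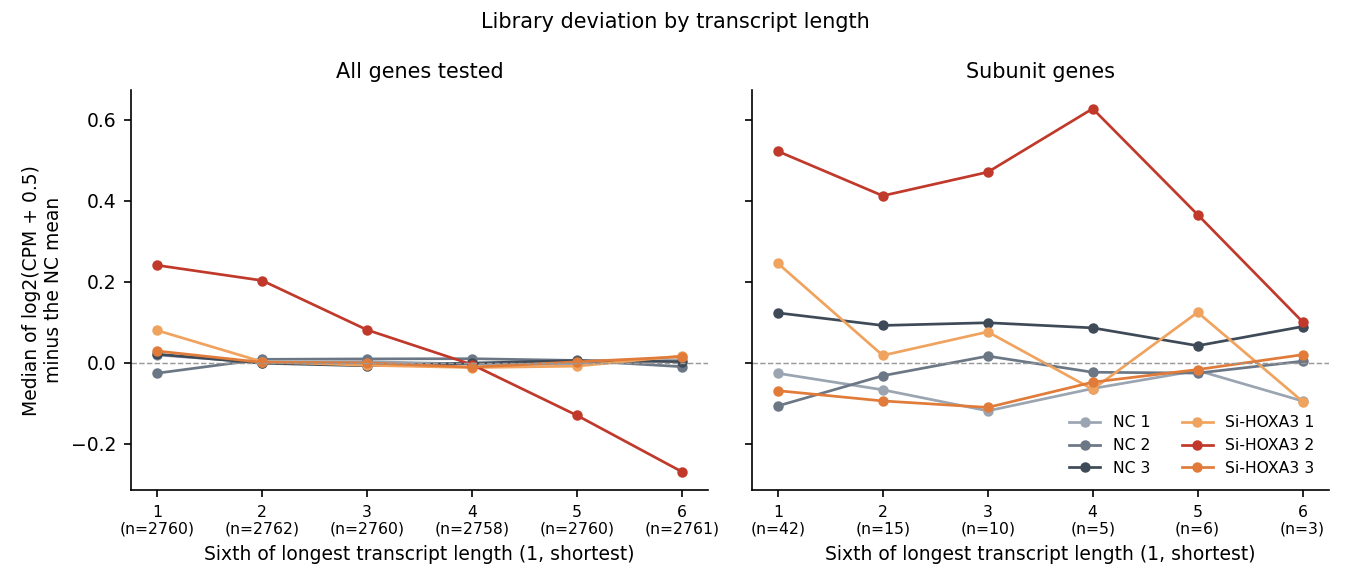
Median deviation from the NC mean, on the log2(CPM + 0.5) scale, by sixth of transcript length, for all genes tested (left) and for the members (right), with 1 line per library. Over all genes Si-HOXA3 replicate 2 falls from 0.24 to -0.27, and its members start at 0.52. The 2 longest sixths hold only 6 and 3 members.

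Genes around the chain were counted in the same way. The 13 subunits encoded by mitochondrial DNA had a median of -0.03 on the log2 scale over 6 libraries and 0.06 without Si-HOXA3 replicate 2, with 0 of 13 at an unadjusted p under 0.05 in either fit. Their summed CPM ran from 40018 to 50114 in NC and from 46532 to 47556 in Si-HOXA3, with Si-HOXA3 replicate 2 inside the NC range. The 53 tested assembly factors had a median of 0.05 and -0.09. With 6 libraries 1 was higher at an unadjusted p under 0.05 (1.89%, against 3.79% of all genes), the copper chaperone COX17 at 0.38 ± 0.16. None was lower in that fit. Without Si-HOXA3 replicate 2 the counts were 0 higher and 5 lower (9.43% of 53, against 5.45% of all genes). The 15 regulators of mitochondrial genes had a median of -0.11 and -0.05, with 0 at that threshold in the first fit. In the second 2 were lower (13.3% of 15, against 5.45% of all genes), TFAM at -0.22 and TFB2M at -0.39. With 6 libraries the lowest p of the 15 regulators, not under 0.05, belonged to the coactivator PPARGC1B, at -0.99 ± 0.56.

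Electron carriers (17 tested) had a median of -0.00 and -0.08, with 0 at an unadjusted p under 0.05 with 6 libraries and 1 lower in the other fit, COQ5 at -0.24 (5.88% of 17, near the share of all genes). Citric acid cycle enzymes (18 tested) had 0.01 and -0.04. Isocitrate dehydrogenase IDH2 was the 1 higher gene at that threshold, at 0.30 ± 0.11 with 6 libraries and 0.22 without Si-HOXA3 replicate 2. In the latter fit DLAT, of the pyruvate dehydrogenase complex, was the 1 lower gene, at -0.18 ± 0.08. Each is 5.56% of 18, near the share of all genes (3.79% higher with 6 libraries, 5.21% higher and 5.45% lower without that library).

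Marker lists of other cell types were set beside these values. The summed CPM of 5 pluripotency genes ran from 1139 to 1181 in NC and from 1190 to 1326 in Si-HOXA3, with NANOG under 1 CPM. The 5 mesenchyme genes ran from 2480 to 2633 against 2592 to 3021, with VIM higher at 0.50 ± 0.14 and PRRX1 at 0. Muscle genes (5) ran from 82.3 to 85.9 against 88.4 to 103, with MYOG at 0. Amnion or trophoblast genes (5) ran from 1193 to 1238 against 1203 to 1311, and the endoderm list from 5969 to 6192 against 5658 to 7167. Neural genes (4) summed to at most 1.76 CPM and liver genes (4) to at most 4.32 CPM in any library. The part of these cells in the values of the subunit genes was not tested, and in bulk RNA fewer cells of a type cannot be told apart from less RNA per cell.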

How the data were processed

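Total RNA from 3 NC and 3 Si-HOXA3 samples was sequenced as single reads (LM-Seq per the study's methods; the labels also name a SMARTER kit). The authors deposited 1 table of raw read counts per gene, with Ensembl identifiers, 1 column per library and none left unmatched to a sample. The aligner and counter are not given in the sources used here. The submitters' processing notes name the mouse builds GRCm38 and mm10, although the identifiers are human, and all 58735 were found in GENCODE 29, which gave symbols, lengths and overlaps.

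Counts were filtered by filterByExpr, scaled by TMM and tested with edgeR 4.0.16 (quasi-likelihood, R 4.3.3) over all genes, with Benjamini-Hochberg adjustment and an unadjusted p under 0.05 as a second rule. Alternatives were DESeq2 1.42.0, limma 3.58.1 (voom with quality weights), other scalings and filters, a length and GC correction (mgcv 1.9.3), a replicate block and each library left out. CPM used the TMM scaling, and TPM the longest annotated transcript. Deviations were taken on log2(CPM + 0.5). The scripts were tested on simulated data. An exact permutation test of 3 against 3 cannot go below 0.1, and was not used.

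Members and context lists (assembly factors, regulators, electron carriers, citric acid cycle, mitochondrially encoded subunits, cell type markers) were chosen with earlier results of these data known. Named members were the 3 highest and the lowest of each complex by TPM, the catalytic subunits (1 is not reported here), the paralog sets, all members failing the filter, the 12 with the smallest p under 0.05 and the 3 largest rises and falls in the fits with and without Si-HOXA3 replicate 2, and up to 4 genes per context list. Depth per library, 14117150 to 15282307 counts, makes 3 counts equal to 0.197 to 0.211 CPM.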

Additional observations from a re-analysis of the deposited data

How the results depend on the processing

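The count of genes with an adjusted p under 0.05 (1 with edgeR) was 35 with DESeq2, 100 without a filter, 67 with voom quality weights, 4 with the replicate block and 4 with the block and the length and GC correction. The count of members (0) was 7 without a filter (a fit of 34513 genes and 85 members) and 0 in every other setting. The 17 members at an unadjusted p under 0.05 were 28 without a filter, where 1862 of all genes were. The median log2 fold change of all members (0.17) was 0.082 with quality weights, and -0.041 with the length and GC correction without Si-HOXA3 replicate 2, a setting added after seeing the data. That of complex III was 0.10 with the correction and 0.087 with the block and the correction. That of complex IV was 0.21 without a filter and 0.26 with quality weights, and that of complex V 0.038 with quality weights. The cause was not tested.

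Leaving out 1 library gave 1 to 24 genes at an adjusted p under 0.05. At an unadjusted p under 0.05 it gave 11 to 29 members, against 643 to 1828 of all genes tested. Medians were 0.0039 to 0.32 for all members, -0.025 to 0.31 for complex I and -0.053 to 0.14 for complex II. They were 0.10 to 0.39 for complex III, 0.17 to 0.50 for complex IV and -0.055 to 0.31 for complex V. The lowest medians came without Si-HOXA3 replicate 2 and the highest without Si-HOXA3 replicate 3. ATP5PO (-0.29 to 0.13 over these fits) changed sign without NC replicate 3 (0.13), Si-HOXA3 replicate 1 (0.054) or Si-HOXA3 replicate 3 (0.013). Same-numbered libraries deviated with correlations of 0.14, 0.10 and -0.06. Differently numbered libraries were not compared in this way, so whether the numbers mark pairs cannot be told. With the replicate block the members' median was 0.17. At an unadjusted p under 0.05 it had 17 higher and 1 lower, where 1109 of 16561 genes were called in either direction. TPM moved beyond 1 SD for 59 of 85 members with the basic coding transcript length and for 51 with the union of exons. The smallest difference detectable with 3 libraries a group was not measured.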
